A study of Mus musculus with 96 samples.

Results

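The transcripts described here are 43 genes of G2 phase and mitosis, measured by RNA-seq in C2C12 cells across cell states and mitochondrial inhibitors. They were chosen by gene name from the deposited table of 54150 rows and fall into 9 roles. Entry into mitosis is represented by Ccna2, Ccnb1, Ccnb2, Cdk1, Cks2, Cdc25c and Foxm1, and the mitotic kinases by Plk1, Aurka and Nek2. The spindle checkpoint genes are Bub1, Bub1b, Ttk and Mad2l1, and those of the anaphase promoting complex and chromatid separation are Cdc20, Ube2c, Pttg1 and Espl1. Aurkb, Incenp, Birc5 and Cdca8 encode the chromosomal passenger complex, and Cenpa, Cenpe, Cenpf, Ndc80, Nuf2 and Spc25 encode centromere and kinetochore proteins. Kif11, Kif20a, Kif23, Kif2c, Kif4, Tpx2, Nusap1, Prc1 and Hmmr encode kinesins and spindle factors, Top2a, Smc2, Ncapg and Mki67 act on chromosome structure, and Anln and Ect2 act in cytokinesis.

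C2C12 is a mouse myoblast line that proliferates in rich serum and, once confluent and moved to low-serum medium, leaves the cell cycle and fuses into myotubes. In a dividing cell, genes of this kind are transcribed mainly in G2 and mitosis, so that the amount of their mRNA in a culture follows how many cells are in those phases. Their promoters are held silent outside the cycle by the DREAM complex and are activated by the MuvB core with B-MYB and FOXM1, which reach DNA through a short element, the cell cycle homology region. Cells that have left the cycle for good, such as myotubes, make little of these transcripts. In bulk RNA, fewer cells of a type and less RNA per cell cannot be told apart.

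The 96 samples covered 35 conditions, with 3 replicates in each except the 2 of every chloramphenicol, NDI1 and GFP group and their DMSO groups; no source used here says whether replicates were separate cultures, so p-values measure only the spread between these samples. Proliferating myoblasts carried a doxycycline-inducible lentiviral transgene and were kept in 300 ng/ml doxycycline. The transgene was luciferase (control myoblasts), LbNOX (a bacterial NADH oxidase that makes water and raises NAD+/NADH), mitoLbNOX (the same enzyme sent to the mitochondrial matrix) or NDI1 (a yeast NADH dehydrogenase that piericidin does not block). They received DMSO or, for 10 hr, the complex I inhibitor piericidin (0.5 µM), the complex III inhibitor antimycin (0.5 µM) or the ATP synthase inhibitor oligomycin (1 µM); control and LbNOX myoblasts also received DMSO or 20 µg/ml chloramphenicol, which blocks mitochondrial translation, for 48 hr. No mitoLbNOX group received oligomycin, and NDI1 myoblasts received only DMSO or piericidin. Untransduced cells after 1 day (day 1 cells) or 4 days (myotubes) in low serum received DMSO, piericidin, antimycin or oligomycin for 10 hr. Day 1 cells had no antimycin group. Myotubes also received the uncoupler BAM15 (0.5 µM), oligomycin with BAM15 or with piericidin, or DMSO or oligomycin in an incubator with 5% oxygen. A further set of myotubes carried an adenovirus with GFP alone or with GFP and LbNOX. Media lacked pyruvate, and uridine was absent in the 10 hr treatments and, per the study, present with chloramphenicol for 48 hr. Control myoblasts differ from day 1 cells and myotubes in the transgene, doxycycline and medium as well as in state, which cannot be told apart.

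Libraries held between 6458295 and 15366745 estimated counts (median 10336588.5), and all 43 genes passed the filter in each of the 6 fits, which asked for 16 or more counts in all replicates of some condition. Each of the 4 transgenes was at 0 counts outside its own lines and at 372 or more in each library of its own. The summed level of 12 myotube markers was 21.0 to 28.04 CPM (counts scaled to library size with TMM factors) in control myoblasts with DMSO and 15065 to 15547 CPM in day 1 cells with DMSO, and 5 endothelial and blood markers summed to at most 9.31 CPM in any library, while 5 fibroblast markers summed to 3.20 to 3.95 CPM in those myoblasts and 92.3 to 93.9 CPM in those day 1 cells; the part of any such marker in the results was not tested. Differences between groups are log2 fold changes with their standard errors from edgeR's quasi-likelihood F test, and a gene is called when its Benjamini-Hochberg adjusted p, over all genes tested, is under 0.05.

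Promoters of these genes are shown because the element through which DREAM and MuvB act can be read in them. The 8 sequences below are from RefSeq on build GRCm38.p6 and run 5′ to 3′ on the gene's strand from 120 bases before the start site through the first 30 bases of the transcript. Capitals mark the letters of the cell cycle homology region (TTTGAA or TTTAAA) and of the CCAAT box, each on either strand, so that TTCAAA and ATTGG are the same words on the opposite strand. Ccnb1 and Ccnb2 encode the B cyclins, Cdk1 their kinase partner, Bub1 a checkpoint kinase, Cdc20 an activator of the anaphase promoting complex, Cenpf and Spc25 kinetochore proteins, and Kif11 a motor that separates the spindle poles.
Ccnb1, chr13:100786457-100786606 (minus strand): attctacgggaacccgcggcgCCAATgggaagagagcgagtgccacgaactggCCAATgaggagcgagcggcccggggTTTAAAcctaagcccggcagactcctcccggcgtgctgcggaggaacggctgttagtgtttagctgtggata
Ccnb2, chr9:70421525-70421674 (minus strand): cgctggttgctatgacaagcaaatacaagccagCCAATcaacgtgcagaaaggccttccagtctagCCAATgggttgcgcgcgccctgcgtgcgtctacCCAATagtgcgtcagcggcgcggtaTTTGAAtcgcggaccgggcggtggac
Cdk1, chr10:69352883-69353032 (minus strand): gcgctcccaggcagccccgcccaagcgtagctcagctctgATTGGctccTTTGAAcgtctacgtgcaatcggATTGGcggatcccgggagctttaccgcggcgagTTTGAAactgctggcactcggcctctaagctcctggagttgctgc
Bub1, chr2:127831830-127831979 (minus strand): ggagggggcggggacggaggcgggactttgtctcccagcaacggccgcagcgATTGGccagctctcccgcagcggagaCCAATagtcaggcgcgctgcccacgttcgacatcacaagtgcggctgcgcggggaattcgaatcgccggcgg
Cdc20, chr4:118437314-118437463 (minus strand): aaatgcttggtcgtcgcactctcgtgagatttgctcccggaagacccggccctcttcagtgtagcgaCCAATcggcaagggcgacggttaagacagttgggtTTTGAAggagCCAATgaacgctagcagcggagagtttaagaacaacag
Cenpf, chr1:189688057-189688206 (minus strand): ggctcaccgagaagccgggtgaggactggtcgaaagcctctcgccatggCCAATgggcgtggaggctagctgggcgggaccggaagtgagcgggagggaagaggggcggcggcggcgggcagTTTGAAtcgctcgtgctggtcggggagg
Spc25, chr2:69206184-69206333 (minus strand): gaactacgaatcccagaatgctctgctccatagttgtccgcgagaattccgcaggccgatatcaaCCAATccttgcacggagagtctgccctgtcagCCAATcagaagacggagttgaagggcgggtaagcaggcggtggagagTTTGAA
Kif11, chr19:37376262-37376411 (plus strand): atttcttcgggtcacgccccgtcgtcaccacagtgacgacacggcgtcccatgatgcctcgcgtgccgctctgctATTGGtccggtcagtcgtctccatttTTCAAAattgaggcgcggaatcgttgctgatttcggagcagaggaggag

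Bub1 is shown as a member with neither TTTGAA nor TTTAAA in this stretch, and Ccnb1 as a member with TTTAAA. Only these words were searched for the element, so their absence does not show that Bub1 lacks it. A RefSeq promoter of 300 bases (250 before and 50 from the start site) was listed for 36 of the 43 genes, 38 promoters in all; Ccna2, Cdc25c, Foxm1, Aurkb, Incenp, Kif20a and Tpx2 had none listed. TTTGAA, on either strand, was in 28 of the 38 (73.7%), against 17.9% of all 32851 promoters in the table, and TTTAAA was in 9 (23.7%), against 13.2%. At least 1 of the words was in 31 promoters (81.6%), against 27.6% of all. CCAAT, on either strand, was in 30 (78.9%), against 37.4% of all, 68% for 60 other mitosis genes, 61.1% for S phase genes and 57.1% for p53 targets. An E2F word (the letters TTCCCGC, the variant TTGGCGC, the further variant TTCGCGC, and the last variant TTGCCGC), on either strand, was in 7 (18.4%), against 9.57% of all promoters and 69.4% of the 36 promoters of a list of 40 S phase genes. For that S phase list TTTGAA was in 11.1% of promoters, and for 60 other mitosis genes it was in 56%. Promoters of a gene that starts at more than 1 place overlap in part, and a match is a description of letters, not a bound site.

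**Figure D1:**
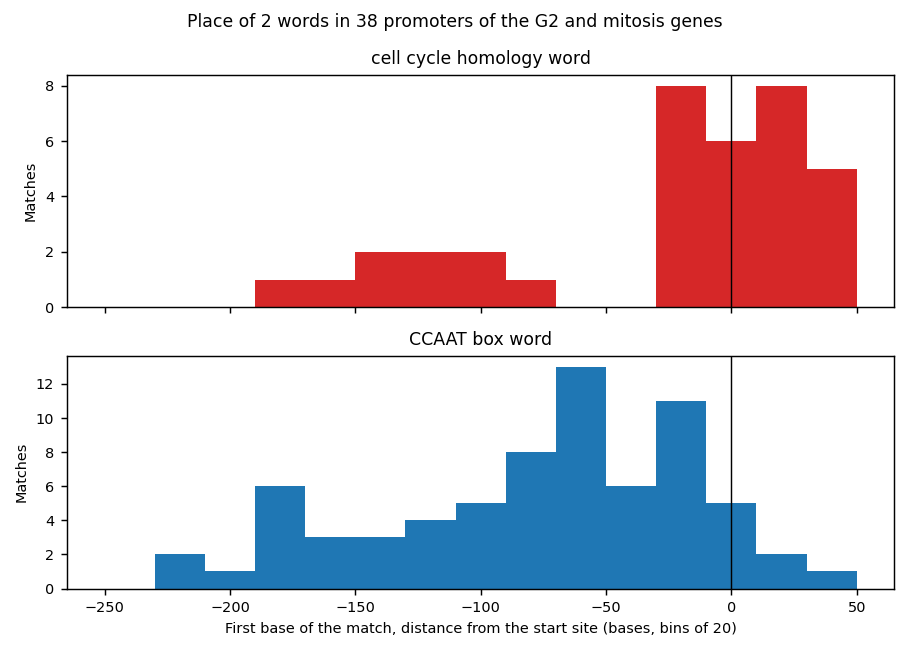
Place of the cell cycle homology word TTTGAA (upper panel) and the CCAAT word (lower panel) in the 38 promoters. TTTAAA matches are not drawn. The x axis is the distance of a match's first base from the start site, in bases and bins of 20. The y axis counts matches. The TTTGAA matches gather from about 30 bases before the start site onward, and the CCAAT words lie mostly upstream of it.

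The whole set was lower in cells moved to low serum. All 43 genes fell from control myoblasts to day 1 cells with DMSO, with a median log2 fold change of -2.45 (5.47-fold), where 63.6% of all genes were called in either direction and their median was -0.002. Falls ran from -1.60 for Nusap1, a microtubule bundling protein, to -3.08 ± 0.13 for Aurka, the kinase of the spindle poles (adjusted p = 2.1e-18, edgeR). Espl1, the protease that cuts cohesin, fell by 2.99 on the log2 scale, the kinase Plk1 by 2.79, Ccnb1 by 2.75 and Birc5 by 2.73.

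Every day 1 sample lay below every myoblast sample for all 43 genes, as it did for 34.1% of all genes, and every myotube sample below every day 1 sample for 34 of the 43, against 23.0% of all genes. Ccnb1 was at 302, 295 and 297 CPM in control myoblasts, at 49.7, 43.1 and 41.3 CPM in day 1 cells and at 32.0, 30.02 and 22.9 CPM in myotubes. Cdk1 was at 280, 267 and 261 CPM, then 53.4, 47.7 and 51.1 CPM, then 35.2, 28.3 and 25.4 CPM in the same order. Every myotube sample lay below every day 1 sample for both genes. Top2a, the topoisomerase that untangles chromosomes, was at 405, 386 and 385 CPM in control myoblasts, 76.8, 69.6 and 76.3 CPM in day 1 cells and 47.5, 44.3 and 41.0 CPM in myotubes. Foxm1, which encodes an activator of these promoters, was at 56.9, 60.01 and 55.7 CPM, then 11.2, 12.4 and 11.1 CPM, then 7.29, 5.99 and 5.76 CPM.

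Between day 1 and myotubes the further fall was smaller. Of the 43 genes, 39 fell and none rose, with a median of -0.53 (all genes 35.6% called, median 0.004), and the largest fall was that of Cenpe, a kinetochore motor, at -1.22 ± 0.17 (adjusted p = 2.1e-06). The 4 genes that did not pass were Incenp (0.01), Cenpf (-0.12), Mad2l1 (-0.18) and Ttk (-0.61). From control myoblasts to myotubes all 43 fell, by a median of -3.03 (69.4% of all genes called). The summed level of the 43 genes was 5709 ± 35.8 CPM in control myoblasts (SD, n = 3), 1063 ± 37.2 CPM in day 1 cells (18.6% of the myoblast level) and 717 ± 72.6 CPM in myotubes (12.6%). Of the other cell cycle lists, 60 of 60 other mitosis genes and 39 of 40 S phase genes also fell from myoblasts to day 1 cells, while Cdkn1a, which encodes the cyclin kinase inhibitor p21, rose by 3.20 ± 0.05 (adjusted p = 3.6e-28) and all 12 myotube markers rose.

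**Figure D2:**
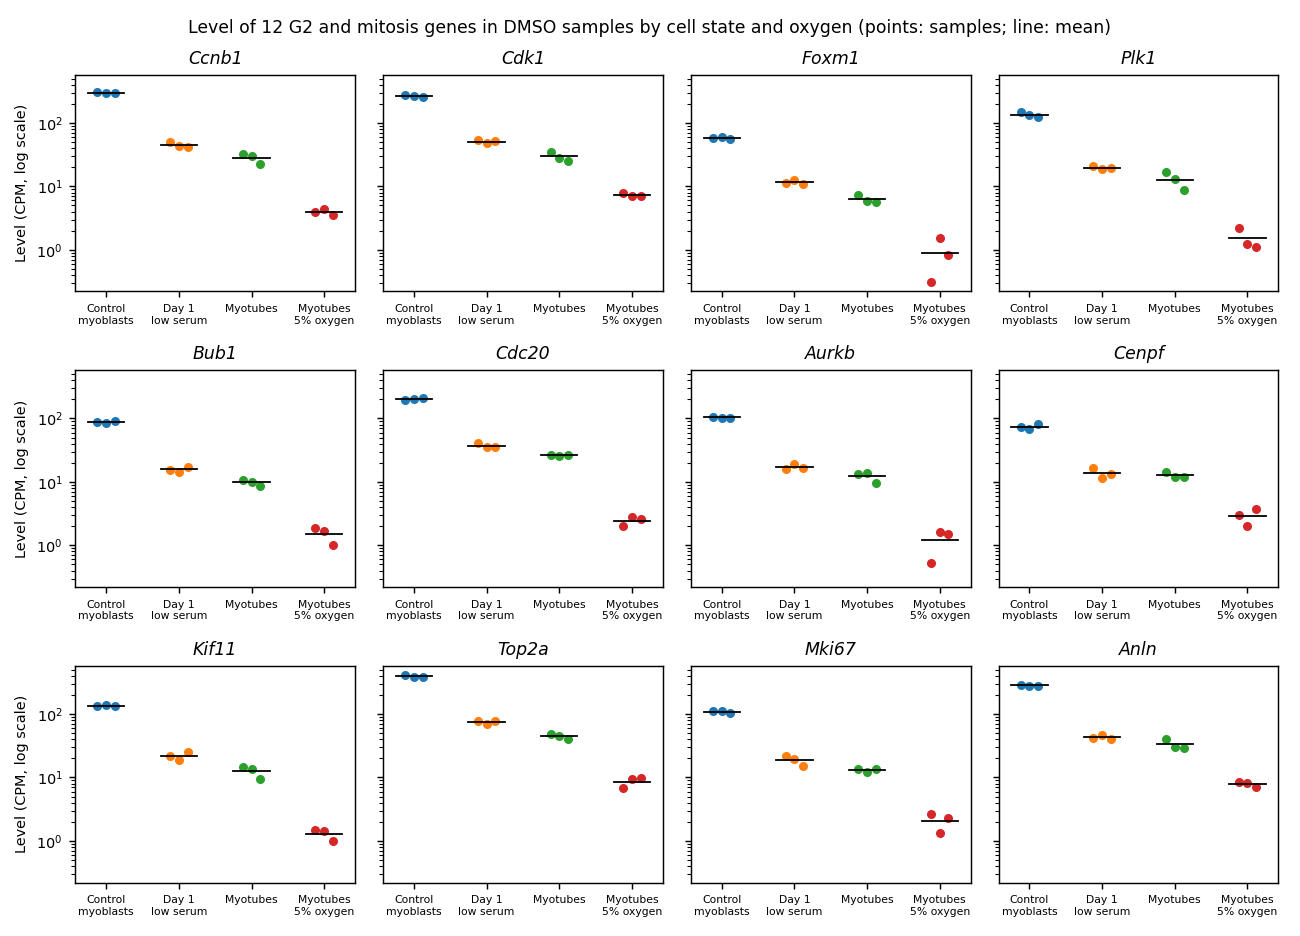
Levels in CPM (log axis) of 12 genes, at least 1 of each role, in DMSO-treated control myoblasts, day 1 cells, myotubes and myotubes in 5% oxygen; points are samples and lines are means of 3. Each gene is highest in myoblasts, and each is lower in myotubes in 5% oxygen than in myotubes in the standard incubator.

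Whether blocking the respiratory chain at different points changes these genes in proliferating cells was asked with the 3 inhibitors in control myoblasts. After 10 hr most of the set was lower with each, but the depth of the fall and the genes that went the other way differed. With piericidin 28 genes fell and 6 rose (median -0.37; all genes 61.7% called, median -0.004). With antimycin 38 fell and 1 rose (median -0.75; all genes 63.2% called), and 14 of them fell by more than 2-fold. With oligomycin 37 fell and none rose (median -0.39; all genes 50.8% called, 26.3% lower). The 3 comparisons share the DMSO samples. The summed level was 4711 ± 108 CPM with piericidin, 4423 ± 108 CPM with oligomycin and 3587 ± 81.5 CPM with antimycin (SD, n = 3 each), against 5709 CPM with DMSO. Marker lists moved in the same samples: the summed level of 6 myoblast markers was 737 to 746 CPM with DMSO, 326 to 347 CPM with piericidin, 578 to 592 CPM with antimycin and 287 to 302 CPM with oligomycin. The summed myotube markers, at 21.0 to 28.04 CPM with DMSO, were at 28.9 to 34.7, 84.3 to 95.9 and 23.5 to 32.8 CPM in the same order, and the part of either list in the result was not tested.

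Spc25 had the largest fall with both complex I and complex III inhibition. All 6 centromere and kinetochore genes fell with antimycin (median -1.04) and 4 of 6 with piericidin (median -0.71). Spc25, a subunit of the NDC80 complex that ties kinetochores to microtubules, was at 90.2, 90.7 and 83.7 CPM with DMSO, 32.3, 35.1 and 34.0 CPM with piericidin, 25.1, 25.1 and 26.1 CPM with antimycin and 49.1, 49.1 and 50.0 CPM with oligomycin. The 4 groups of samples were separate from each other, and the fall was -1.34 ± 0.08 with piericidin, -1.76 ± 0.08 with antimycin and -0.82 ± 0.08 with oligomycin (adjusted p = 5.6e-15, 1.3e-17 and 3.5e-10). Aurkb, the passenger complex kinase, was at 107, 102 and 103 CPM with DMSO, 45.2, 48.5 and 52.8 CPM with piericidin and 37.3, 28.9 and 34.1 CPM with antimycin. Its log2 fold change was -1.05 with piericidin, -1.60 with antimycin and -0.72 after oligomycin. The 4 passenger complex genes did not move together: with piericidin 2 rose and 2 fell, and with antimycin 2 fell and 2 did not pass.

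All 4 spindle checkpoint genes fell with both inhibitors, whereas of the 4 genes of the anaphase promoting complex and chromatid separation 1 fell with piericidin and 3 with antimycin. Bub1 was at 87.5, 86.3 and 90.9 CPM with DMSO and at 32.1, 43.5 and 32.0 CPM with piericidin, a change of -1.26 ± 0.09. With antimycin it was at 40.1, 38.6 and 37.2 CPM. Pttg1, which encodes the securin that holds back separase, fell by 1.14 on the log2 scale with piericidin, by 1.58 with antimycin and by 0.87 with oligomycin. Nuf2 (-1.11) and Ccnb2 (-1.08) completed the 5 largest falls with piericidin. Ndc80 (-1.45) and Cks2, a CDK-binding subunit (-1.39), completed those with antimycin. All 4 spindle checkpoint genes and all 4 chromosome structure genes fell with each inhibitor.

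The 5 largest falls with oligomycin were at Mki67, Foxm1, Ttk, Pttg1 and Spc25, of which Pttg1 and Spc25 also stood among those with piericidin and antimycin. Mki67, the coat protein of mitotic chromosomes and a common marker of proliferation, was at 110, 111 and 105 CPM with DMSO and 53.4, 58.8 and 49.0 CPM with oligomycin, a change of -0.999 ± 0.07 (adjusted p = 1.6e-13). Foxm1 was at 27.97, 35.5 and 28.8 CPM with oligomycin, a change of -0.89 ± 0.09. Ttk, a checkpoint kinase, fell by 0.88. Ccnb1 stayed near its DMSO level at 309, 292 and 305 CPM (0.04 ± 0.05, adjusted p = 0.59).

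A few genes rose where most fell. Tpx2, the spindle assembly factor that activates Aurora A, was at 177, 173 and 188 CPM with DMSO, 266, 262 and 247 CPM with piericidin and 236, 236 and 225 CPM with antimycin, while with oligomycin it was at 171, 159 and 148 CPM. It rose by 0.57 ± 0.06 with piericidin and 0.41 ± 0.06 with antimycin (adjusted p = 9.2e-10 and 4.4e-07). Aurka, its kinase partner, rose by 0.42 ± 0.07 with piericidin, from 105, 103 and 94.1 CPM to 134, 130 and 126 CPM. With antimycin it fell by 0.19. Incenp, the passenger complex scaffold, rose by 0.997 ± 0.24 with piericidin (adjusted p = 0.00078), although its DMSO samples were spread over 41.6, 77.3 and 57.7 CPM. The other risers with piericidin were Cdca8 (0.36), Ccnb1 (0.18 ± 0.05) and Anln, a cytokinetic ring scaffold (0.16). With antimycin 4 genes did not pass: Incenp (0.20), Cdca8 (-0.02), Prc1, a midzone bundler (-0.07), and Ube2c, a ubiquitin conjugase of the anaphase promoting complex (-0.12). The sign for Incenp and Cdca8 changed under some alternatives given in the closing section.

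Set directly against each other, the inhibitors differed. Antimycin gave lower levels than piericidin for 37 genes and a higher level only for Ccnb2 (0.30), with a median of -0.41 (all genes 37.2% called), and the largest differences were at Plk1 (-0.84), Incenp (-0.79), Kif20a (-0.79), Cks2 (-0.78) and Kif2c (-0.71). Between piericidin and oligomycin 15 genes were higher with piericidin and 11 lower (all genes 39.2% called), led by Incenp (0.84), Tpx2 (0.72) and Kif4 (0.63) on one side and Ndc80 (-0.78) and Bub1 (-0.70) on the other. Antimycin was lower than oligomycin for 26 genes and higher for 5, which were Tpx2 (0.56), Prc1, Foxm1, Cdca8 and Cenpa (all genes 50.0% called). S phase genes fell with every inhibitor in control myoblasts: 36 of 40 fell with piericidin (median -0.88), 36 with antimycin (-0.99) and 36 with oligomycin (-0.81).

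**Figure D3:**
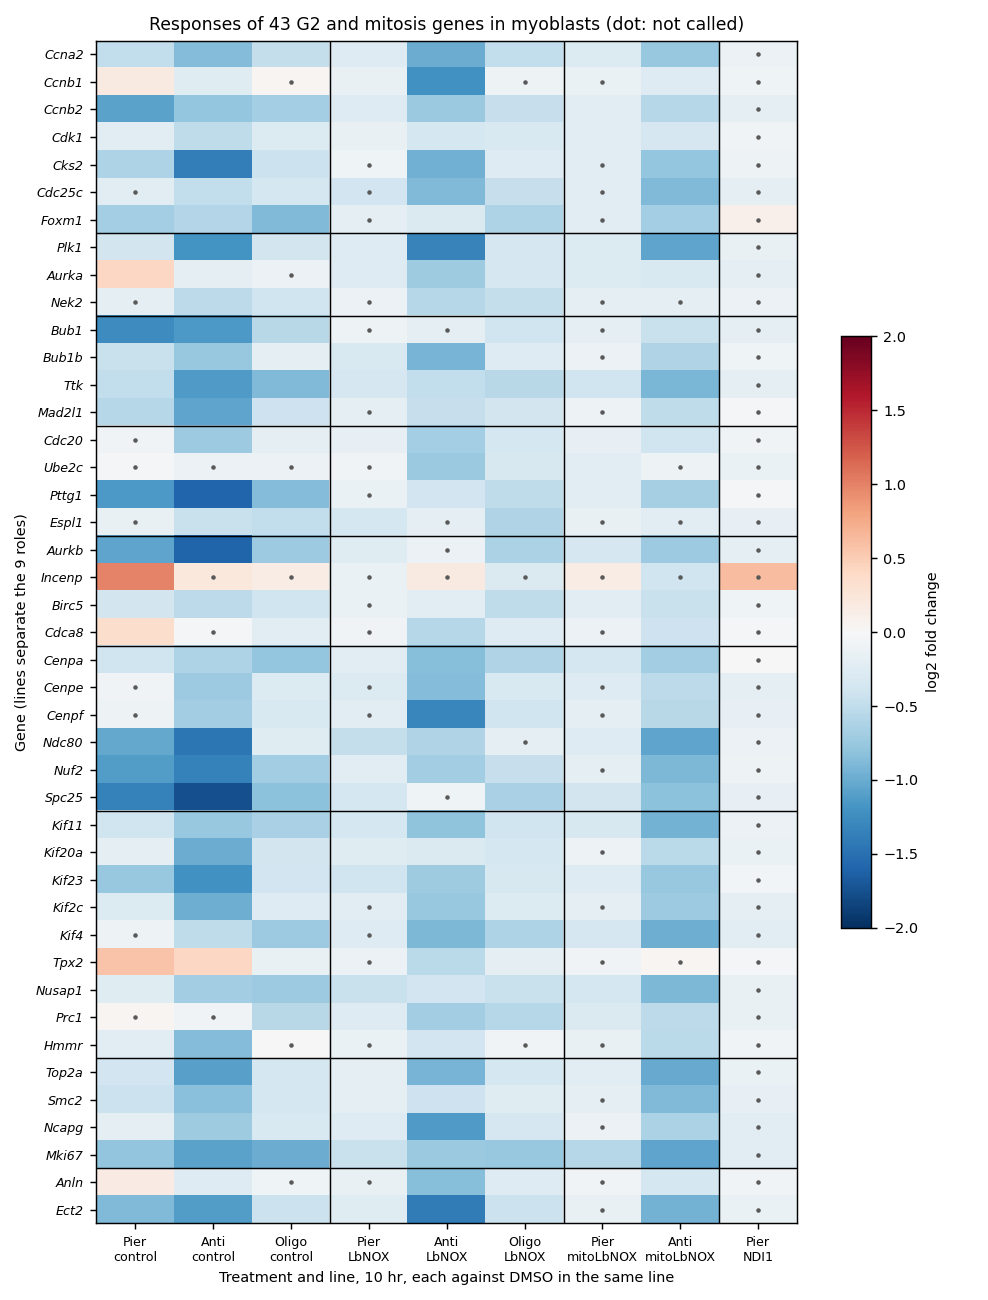
Log2 fold change against DMSO of the same line for each of the 43 genes (rows, grouped by role) in 9 treatments of myoblasts (columns); red is higher, blue is lower, and a dot marks a gene whose adjusted p was 0.05 or more. Blue covers most of the control antimycin column, the Tpx2 and Incenp rows turn red in the control piericidin column, and no gene is called in the NDI1 column.

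LbNOX, which oxidises NADH without the respiratory chain, changed the response to complex I inhibition at some genes more than in the summed level. With piericidin the sum was 86.0% of that with DMSO in LbNOX myoblasts and 82.5% in control myoblasts. The median difference in response between these lines was 0.09. With DMSO few of these genes passed between lines: edgeR called 0 of 43 between LbNOX and control myoblasts (2.68% of all genes called, 3 of 43 at an unadjusted p under 0.05, DESeq2 0), 0 between mitoLbNOX and control (1.77% of all genes, 4 unadjusted, DESeq2 0), and 1, Kif23 at -0.26, between NDI1 and control (4.61% of all genes), a count that was 0 on leaving out any replicate, with no count filter, with DESeq2 size factors and in a fit of these groups alone. With piericidin 25 genes fell in LbNOX myoblasts and none rose (median -0.23; all genes 8.87% called), but leaving out replicate 1, 2 or 3 gave a count of 5, 8 or 12, and a fit of these groups alone gave 16. In mitoLbNOX myoblasts 21 fell (median -0.21; all genes 11.2% called), and 10, 7 or 15 without replicate 1, 2 or 3.

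In NDI1 myoblasts, whose NADH oxidation bypasses the block, edgeR called 0 of 43 with piericidin (0.00835% of all genes called), with 12 of 43 at an unadjusted p under 0.05 and DESeq2 0; the median was -0.13 and 41 of the 43 values were below 0. The difference in response between lines was itself tested, and was called at a share of these genes somewhat above that of all genes. Against control myoblasts, the piericidin response was higher at 17 genes and lower at 7 in LbNOX (all genes 44.3% called), higher at 15 and lower at 7 in mitoLbNOX (42.8%), and higher at 19 and lower at 5 in NDI1 (42.7%); these 3 comparisons share the control samples. Bub1 differed by 1.15 ± 0.12, 1.08 ± 0.12 and 1.08 ± 0.14 in the 3 lines, Spc25 by 0.99, 0.97 and 1.19, and Pttg1 by 1.02, 0.92 and 1.11. Tpx2 differed the other way, by -0.69, -0.63 and -0.60, as did Aurka by -0.67, -0.69 and -0.61. The others lower in NDI1 were Cdca8 (-0.39), Ccnb1 (-0.27) and Anln (-0.23), the last of which changed sign to 0.007 without replicate 2, where each NDI1 group is 1 sample and its spread is taken from the other groups. Bub1 samples in LbNOX myoblasts were at 81.8, 74.0 and 81.5 CPM with piericidin and 84.6, 84.0 and 88.4 CPM with DMSO.

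With antimycin the number of genes that fell was alike in the lines, yet in LbNOX myoblasts the genes that fell most were others. In LbNOX myoblasts 38 genes fell and none rose (median -0.70; all genes 46.1% called, median 0.03), and in mitoLbNOX myoblasts 38 fell and none rose (median -0.64; 47.7% called). The summed level was 3462 ± 61.6 CPM with antimycin in LbNOX myoblasts, 60.7% of that with DMSO in the same line, and 3587 CPM in control myoblasts, 62.8%. The summed myoblast markers also moved, to 42.7% of the DMSO level in LbNOX, 59.0% in mitoLbNOX and 78.8% in control myoblasts, and their part in the result was not tested. The largest falls in LbNOX myoblasts were at Ect2, which acts in cytokinesis (-1.40 ± 0.07), Plk1 (-1.33), Cenpf (-1.31), Ccnb1 (-1.21) and the condensin subunit Ncapg (-1.14). The 5 genes that did not pass in LbNOX myoblasts were Spc25 (-0.09 ± 0.08, adjusted p = 0.34), Aurkb (-0.11), Bub1 (-0.20), Espl1 (-0.17) and Incenp (0.17), of which Spc25, Aurkb and Bub1 fell by 1.76, 1.60 and 1.16 in control myoblasts. Across the 43 genes, which are not independent, the antimycin changes of control and LbNOX myoblasts had a Pearson r of -0.005 (Spearman coefficient -0.021). For antimycin r was 0.657 between control and mitoLbNOX myoblasts and 0.253 between LbNOX and mitoLbNOX myoblasts. Between control and LbNOX myoblasts r was 0.839 for oligomycin and 0.294 for piericidin. No samples are shared within a pair.

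The samples show the exchange. Spc25 was at 78.5, 78.3 and 68.9 CPM with antimycin in LbNOX myoblasts and 80.0, 88.6 and 81.5 CPM with DMSO, where control myoblasts had gone from 83.7 or more to 26.1 CPM or less. Aurkb was at 92.3, 91.8 and 95.2 CPM with antimycin and 100, 110 and 104 CPM with DMSO in LbNOX myoblasts. In mitoLbNOX myoblasts Spc25 lay between, at 44.2, 46.4 and 48.6 CPM with antimycin and 90.2, 84.1 and 73.4 CPM with DMSO. Ccnb1 did the reverse: in LbNOX myoblasts it went from 274, 300 and 281 CPM with DMSO to 122, 118 and 114 CPM with antimycin, in control myoblasts from 302, 295 and 297 to 252, 244 and 245 CPM, and in mitoLbNOX myoblasts from 294, 299 and 269 to 228, 245 and 236 CPM. Tpx2, which rose with antimycin in control myoblasts, went in LbNOX myoblasts from 175, 178 and 172 CPM to 122, 107 and 118 CPM. Plk1 fell in both lines, to 49.6, 59.2 and 63.4 CPM in control and 49.2, 47.8 and 51.7 CPM in LbNOX myoblasts.

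The difference between the responses was tested gene by gene. Relative to control myoblasts, the antimycin response of LbNOX myoblasts was higher at 19 genes and lower at 12 (all genes 51.5% called). It was higher at Spc25 by 1.67 ± 0.11, Aurkb by 1.49, Pttg1 by 1.20, Bub1 by 0.96 and Ndc80 by 0.86, and lower at Ccnb1 by -0.98 ± 0.07, Tpx2 by -0.95, Ube2c by -0.64, Prc1 by -0.63 and Cenpf by -0.62. For mitoLbNOX it was higher at 14 and lower at 4 (all genes 31.7% called), led by Spc25 (0.94), Pttg1 (0.93) and Aurkb (0.88); the 4 lower were Kif4, Prc1, Cdca8 and Tpx2.

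Genes of S phase and of p53 were read in the same samples. Of 40 S phase genes, 36 fell and 1 rose with antimycin in control myoblasts (median -0.99), whereas in LbNOX myoblasts 5 fell and 12 rose (median 0.10), and the difference between lines was called higher at 35 and lower at 2. The summed S phase level was 2293 ± 51.6 CPM with antimycin in control myoblasts and 4497 ± 57.9 CPM in LbNOX myoblasts, against 4716 and 4835 CPM with DMSO. Ccne1, the G1/S cyclin E1, changed by -2.78 ± 0.10 in control and by 0.21 ± 0.09 in LbNOX myoblasts (adjusted p = 1.5e-20 and 0.046). Of 19 tested p53 targets, 10 rose and 3 fell with antimycin in control myoblasts (median 0.46), and 17 rose and none fell in LbNOX myoblasts (median 1.01), with the difference between lines called higher at 11 and lower at 4. The summed p53 target level was 172% of that with DMSO in control and 193% in LbNOX myoblasts. Cdkn1a was at 115, 123 and 114 CPM with DMSO and 187, 192 and 193 CPM with antimycin in control myoblasts, and at 114, 106 and 114 CPM with DMSO and 406, 410 and 375 CPM with antimycin in LbNOX myoblasts. The part of these lists in the result for the 43 genes was not tested.

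**Figure D4:**
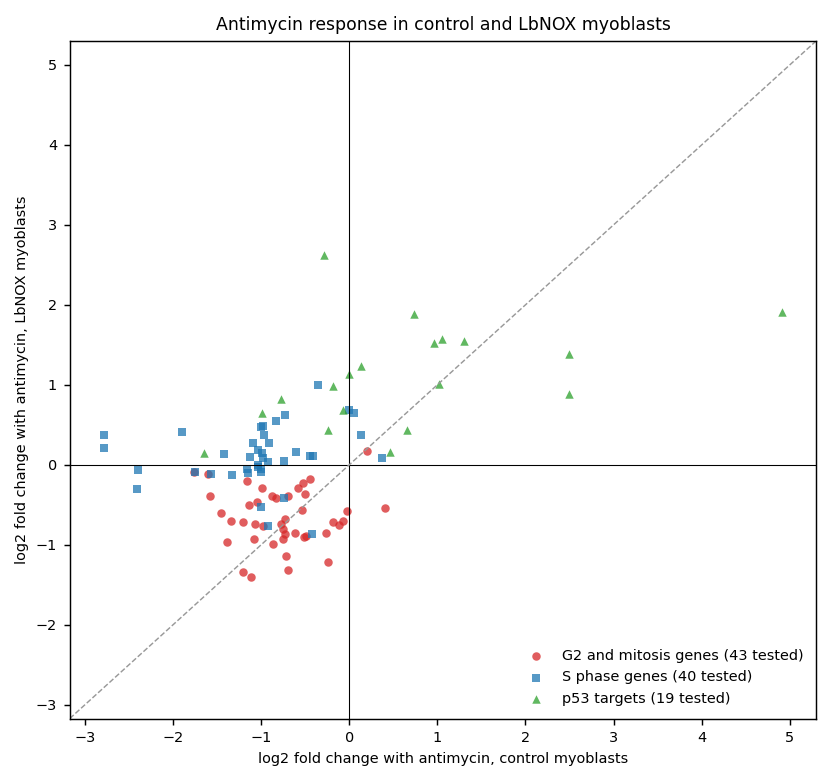
Log2 fold change with antimycin in control myoblasts (x axis) and in LbNOX myoblasts (y axis) for the 43 G2 and mitosis genes, 40 S phase genes and 19 tested p53 targets; each point is a gene and the dashed line marks equal change. The G2 and mitosis genes lie mostly below 0 on both axes with no common order, the S phase genes spread along the x axis near 0 on the y axis, and all p53 targets lie above 0 on the y axis.

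With oligomycin 39 genes fell and none rose in LbNOX myoblasts (median -0.37; all genes 35.2% called), with Mki67 (-0.76), Spc25 (-0.64), Aurkb (-0.63), Foxm1 (-0.62) and Kif4 leading. The response differed from that of control myoblasts at 2 genes, Pttg1 (0.36 ± 0.09, adjusted p = 0.011) and Nusap1 (0.28 ± 0.09, adjusted p = 0.046; all genes 7.98% called), and leaving out a replicate gave 0 or 1. Chloramphenicol for 48 hr lowered 8 genes in control myoblasts and raised none (median -0.16; all genes 8.45% called), with Ndc80 (-0.39 ± 0.09), Ttk (-0.36) and Spc25 (-0.36) leading and Cdk1 (-0.25) among them. The count was 3 in a fit of the compared groups alone and with a term for outer wells (sample codes such as a plate would carry, whose meaning the labels do not give, read as wells), 4 with a replicate block and 13 on dropping the count filter. In LbNOX myoblasts edgeR called 0 with chloramphenicol (0.931% of all genes called, 3 of 43 unadjusted, DESeq2 0). The difference between the lines was called at 0 (0.53% of all genes, 7 unadjusted, DESeq2 0, with no adjusted p for 2 genes). The summed myoblast markers moved in these samples too. They were at 53.7% of the DMSO level with oligomycin in LbNOX myoblasts. With chloramphenicol they were at 76.8% in control and 79.5% in LbNOX myoblasts. Their part in the results was not tested.

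In day 1 cells, whose levels of these genes had already dropped, oligomycin lowered 20 of the 43 and raised none (median -0.39; all genes 20.7% called, 10.1% lower). The count rested on all 9 samples: it was 7, 6 and 9 without replicate 1, 2 and 3. Kif4, a chromosome-arm kinesin, changed by -1.02 ± 0.22 (adjusted p = 0.0059). Ect2 went from 25.7, 21.3 and 21.5 CPM to 13.8, 13.2 and 13.5 CPM (-0.75 ± 0.11), Foxm1 from 11.2, 12.4 and 11.1 to 7.04, 6.98 and 6.91 CPM (-0.72), and Prc1 (-0.64) and Ccna2 (-0.60) followed. Spindle factors held 7 of the 20 and kinetochore genes none. By edgeR, piericidin lowered 1 gene, Kif23, a midzone motor (-0.50; all genes 2.75% called), a call lost on leaving out any replicate and on fitting these groups alone; 20 of 43 had an unadjusted p under 0.05, 5 were called with no count filter, and DESeq2 called 2 and gave no adjusted p for 25.

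In myotubes in the standard incubator few of these genes were called with the inhibitors. Most values were still below 0: 33 with piericidin (median -0.17), 41 with antimycin, 29 with oligomycin (median -0.12) and 35 with BAM15 (median -0.16). Levels were low in myotubes and the DMSO sums ran from 655 to 797 CPM, which limits what the test can call. With piericidin edgeR called 0 of 43 (8.99% of all genes called; 0 unadjusted, DESeq2 0). Antimycin lowered 8 (median -0.29; all genes 12.9% called), which were Smc2, a condensin subunit (-0.66), Ndc80 (-0.66), Ccna2 (-0.52), Cenpa (-0.50), Nuf2 (-0.50), Cdc20, Mad2l1 and Cks2, and 1, 3 or 5 were called without replicate 1, 2 or 3 and 4 with no count filter. Oligomycin raised Cenpe (0.64) and lowered Cenpf (-0.56; all genes 33.3% called), with 0 or 1 called without a replicate. BAM15 lowered Incenp (-0.75), Nuf2 (-0.53) and Spc25 (-0.50; all genes 25.4% called), with 4, 0 and 0 called without replicate 1, 2 and 3 and 5 by DESeq2. Beside oligomycin alone, adding BAM15 lowered Nek2 (-0.60; all genes 26.1% called) and adding piericidin raised Pttg1 (0.39; all genes 20.9% called), and without a replicate 0, and 0 or 1, were called.

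The difference in response between states was called at about the same share of these genes as of all genes with piericidin and oligomycin, and at a somewhat larger share with antimycin. Relative to control myoblasts, the piericidin response of myotubes was higher at 17 genes and lower at 3 (all genes 46.5% called), the antimycin response was higher at 24 and lower at 1 (47.9%), and the oligomycin response was higher at 13 and lower at none (29.0%). Spc25 led with antimycin (1.52 ± 0.15) and piericidin (1.13 ± 0.15), followed by Pttg1 (1.43) with antimycin and Ccnb2 (1.13) with piericidin; Foxm1 (1.04 ± 0.17), Mki67 (0.94) and Cenpe (0.92) led with oligomycin. The genes lower in this sense were Incenp, Tpx2 and Cdca8 with piericidin and Tpx2 (-0.62) with antimycin. The oligomycin count was 8 without replicate 3.

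The 2 groups of myotubes in 5% oxygen had the lowest summed levels of the 35 conditions. All 43 genes fell against myotubes in the standard incubator with DMSO, and every 5% oxygen sample was below every standard sample for all 43, an arrangement that 20.0% of all genes showed; 22.1% of all genes were called and 9.78% were lower. The median was -2.55 (5.84-fold), beside 0.02 over all genes, and 42 of the 43 fell by more than 2-fold. The summed level was 138, 146 and 140 CPM in the 3 samples against 797, 700 and 655 CPM, which is 2.47% of the level in control myoblasts with DMSO. Each of the 43 was still called lower without any 1 replicate, by DESeq2 and under all other alternatives.

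Genes of every role took part. Nuf2, a partner of Spc25 in the NDC80 complex, went from 14.3, 13.0 and 12.5 CPM to 1.47, 1.14 and 0.921 CPM (-3.45 ± 0.20). Cdc20 went from 26.6, 25.3 and 26.6 CPM to 2.00, 2.76 and 2.60 CPM (-3.35 ± 0.18). Aurkb, Cenpe and Kif11 followed at -3.24, -3.23 and -3.22. Ccnb1 went from 32.0, 30.02 and 22.9 CPM to 3.89, 4.47 and 3.60 CPM (-2.78), Top2a from 47.5, 44.3 and 41.0 CPM to 6.73, 9.32 and 9.80 CPM (-2.30) and Plk1 from 16.6, 13.0 and 8.74 CPM to 2.21, 1.24 and 1.09 CPM (-3.04). No 5% oxygen sample of these genes overlapped a standard sample. The smallest falls were at Cks2 (-0.69 ± 0.10), from 18.1, 18.0 and 18.8 CPM to 11.5, 10.5 and 10.9 CPM, at Mad2l1, a checkpoint protein (-1.32), and at Incenp (-1.38). Counts were low there, down to 3 in a library. Of the 43 genes, 24 had at least 16 counts in every 5% oxygen DMSO library. The other 19, Nuf2 and Plk1 among them, entered the test only through groups where they were higher. The 24 alone all fell, 23 of them by more than 2-fold, with a median of -2.21; this choice leaves out genes with the lowest levels.

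Against oligomycin in the standard incubator, oligomycin in 5% oxygen gave lower levels for all 43 (median -2.38; all genes 33.3% called, 16.5% lower), 42 of them by more than 2-fold, with Mki67 (-3.09 ± 0.25), Ndc80 (-3.04), Kif11 (-2.94), Ccna2 (-2.91) and Foxm1 (-2.88) leading. Of the 43, 22 had at least 16 counts in every library of that group; these alone all fell, 21 by more than 2-fold, with a median of -2.05, and the other 21 entered through groups where they were higher. The summed level was 142, 153 and 145 CPM. Across the 43 genes, with no shared samples, the falls with DMSO and with oligomycin had a Pearson r of 0.822 (Spearman coefficient 0.729). These values include the genes with low counts in 5% oxygen, and none was computed for the others alone. The fall was smaller with oligomycin at 2 genes, Cdc20 (0.81 ± 0.27, adjusted p = 0.037) and Cdk1 (0.69 ± 0.19, adjusted p = 0.011; all genes 17.4% called), a count that was 0 or 1 without a replicate. Cdk1 was at 7.78, 6.94 and 7.12 CPM with DMSO and 9.54, 10.5 and 13.3 CPM with oligomycin in 5% oxygen.

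Other genes and markers were read in the same samples. In 5% oxygen with DMSO, 51 of 59 tested other mitosis genes fell and none rose (median -1.78), and 38 of 39 tested S phase genes fell (median -1.19) while E2f1 rose (0.61). With oligomycin in 5% oxygen, 49 of 59 other mitosis genes and 24 of 39 S phase genes (median -0.78) fell against oligomycin alone, and the summed myoblast markers overlapped, at 201 to 215 CPM against 209 to 229 CPM. With DMSO the summed myotube markers were at 17516 to 19108 CPM against 17090 to 17471 CPM, and the summed myoblast markers at 171 to 178 CPM against 223 to 231 CPM. Cdkn1a was at 1451, 1464 and 1330 CPM against 1619, 1500 and 1546 CPM (-0.09 ± 0.05, adjusted p = 0.20), Cdkn1b, encoding p27, rose by 0.71 and Cdkn1c, encoding p57, fell by 1.14. All 8 genes of a hypoxia list (Vegfa, Pdk1, Ankrd37, Egln3, Bnip3, Ndrg1, Slc2a1 and Car9), chosen after the data were seen to check the oxygen label, rose, with a median of 2.12 and sums of 3226 to 3279 CPM against 593 to 798 CPM. The same 8 rose with BAM15 in the standard incubator (median 1.71, sums of 2396 to 2569 CPM), where 3 of the 43 G2 and mitosis genes fell. In control myoblasts their sums were 135 to 144 CPM with DMSO, 729 to 759 CPM with piericidin, 1213 to 1257 CPM with antimycin and 438 to 464 CPM with oligomycin, where 3 of 7 tested rose with each inhibitor and 4, 3 and 3 fell, and where 28, 38 and 37 of the 43 fell. The part of this list in the results was not tested. The 5% oxygen myotubes were kept in a separate incubator from the night before treatment, so oxygen and incubator cannot be told apart. If the sample codes are plate wells, which the labels do not say, the other samples in the same column as 5% oxygen samples, 1 each with oligomycin and BAM15 and with oligomycin and piericidin, summed to 614 and 673 CPM for the 43 genes.

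**Figure D5:**
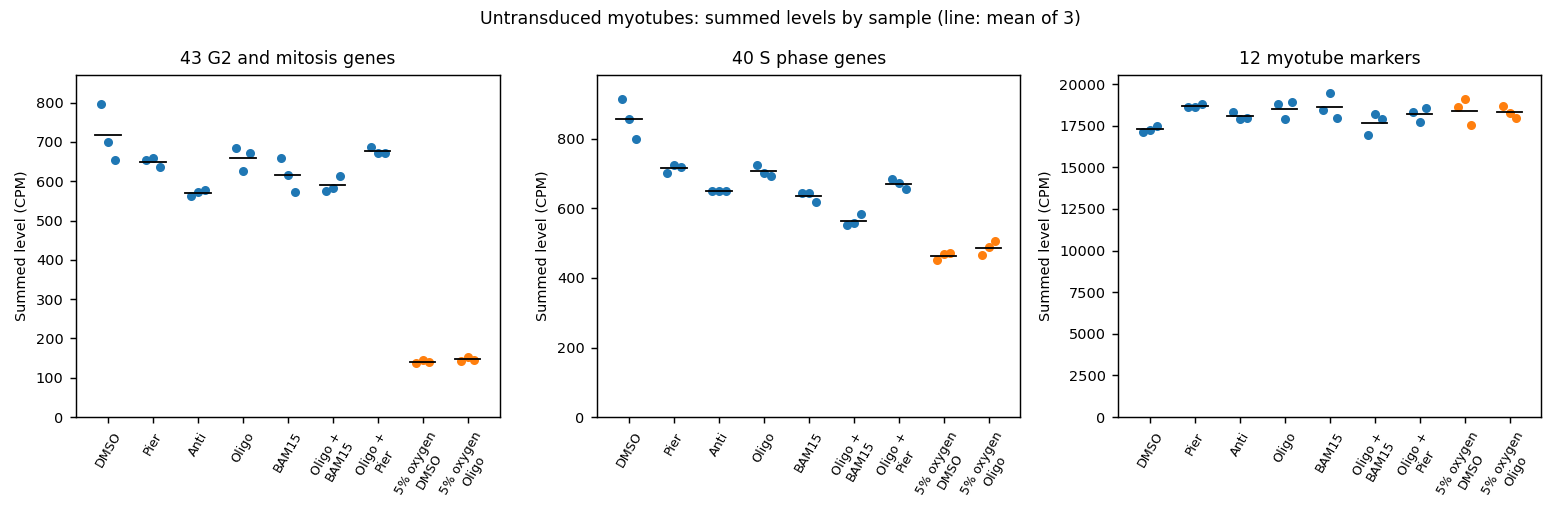
Summed levels in CPM of the 43 G2 and mitosis genes, 40 S phase genes and 12 myotube markers in each untransduced myotube sample by treatment; points are samples, lines are means of 3, and orange marks 5% oxygen. The G2 and mitosis sums are between 563 and 797 CPM in the standard incubator and between 138 and 153 CPM in 5% oxygen, while the myotube markers of both overlap.

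In myotubes with adenovirus, LbNOX with GFP against GFP alone gave 0 calls by edgeR with DMSO (0.0242% of all genes called; 6 of 43 unadjusted; DESeq2 gave no adjusted p for the 43). Oligomycin lowered Cenpf (-0.84 ± 0.17, adjusted p = 0.0023), Smc2 (-0.59), Prc1 (-0.53) and Plk1 (-0.51) in GFP myotubes (all genes 25.9% called), with 0 to 3 called without a replicate and 2 by DESeq2, and Cenpf (-0.58) in LbNOX myotubes (32.0% called), with 0 to 2 called without a replicate. Cenpf, a large coiled-coil kinetochore protein, was called lower with oligomycin in each of the 3 sets of myotubes. Piericidin lowered Nek2, a centrosome kinase (-0.79), in GFP myotubes (3.09% called), a call absent on leaving out any replicate and with DESeq2 (without replicate 1 or 2 each GFP group is 1 sample, with its spread taken from the other groups), and gave 0 calls by edgeR in LbNOX myotubes (6.78% of all genes called; 7 of 43 unadjusted, DESeq2 0).

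How far the 43 genes moved together was described with the correlation of each gene with the mean of the others, on log2 CPM, over samples that share lines, treatments and depth. Over the 27 untransduced myotube samples the median r was 0.965 and 42 genes were above 0.8, with the 5% oxygen samples at the low end. All 43 genes were lower in those samples and r was not computed without them. It therefore does not show that the genes moved together more closely in myotubes than in myoblasts. Over the 37 myoblast samples treated for 10 hr the median was 0.826, 26 genes were above 0.8, and Incenp was lowest at -0.04. Among the 36 genes with a listed promoter, the median change with antimycin was -0.75 in control myoblasts for the 26 with TTTGAA and -0.89 for the 10 without, and in LbNOX myoblasts -0.74 and -0.51. In 5% oxygen the medians were -2.52 and -2.59. Ccnb1, Birc5 and Cenpe, counted among the 10 without TTTGAA, hold TTTAAA. The split is thus by the letters TTTGAA and not by the presence of the element.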

How the data were processed

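PolyA-selected RNA was made into Smart-seq2 libraries that do not keep the strand, so a gene and an antisense partner are not separable. The authors demultiplexed reads with bcl2fastq 2.20.0.422, quantified them with kallisto 0.44 on mouse transcripts plus those of the transgenes, added transcripts up to genes over both flow cells, and deposited the estimated counts, not normalised and as whole numbers, in 54150 rows. Groups came from the sample labels. Here, these counts were tested with edgeR 4.0.16 (R 4.3.3, quasi-likelihood) in 6 fits and 46 comparisons, 1 of them added after results were seen, with TMM factors, no covariate and a threshold of 0.05 after Benjamini-Hochberg adjustment; a standard error is the absolute log2 fold change over the square root of F. The filter of 16 counts is the one in the study's methods. Levels are CPM with TMM factors over 96 samples. Of 87 replicate pairs, 0 were identical.

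The alternatives were DESeq2 1.42.0 (its Wald test, and its size factors in edgeR), no filter, a replicate block, fits of the compared groups alone, a term for outer wells (read from sample codes of unstated meaning) and leaving out each replicate. The 43 members and the other lists were chosen with earlier results of these data known, and Gtse1 and Cdkn1a each stand in more than 1 list. Genes named are at least 1 of each role, up to 5 called members in each direction with the largest changes, called members that go against most, and members whose direction differs between comparisons; others are at most 3 a list. Promoters and motif matches were read from RefSeq sequence for GRCm38.p6. On simulated counts for piericidin in control myoblasts, the test recovered 91 of 96 genes changed 2-fold and 74 of 104 changed 1.5-fold, with 6 false calls among 11981 genes. For chloramphenicol, with 2 replicates a group, it recovered 80 of 99 and 40 of 101, with 12 false calls among 11704 genes.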

Additional observations from a re-analysis of the deposited data

Results flagged for a closer look

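The response to an inhibitor differed between cell states by a test of the difference itself. Of the 43 genes, 20 differed between myotubes and control myoblasts in their response to piericidin, 25 in that to antimycin and 13 in that to oligomycin; at 17, 24 and 13 of them the myotube response was the higher. Over all genes 46.5%, 47.9% and 29.0% were called, so the piericidin and oligomycin counts are near the background. Spc25 led with antimycin (1.52 ± 0.15) and Foxm1 with oligomycin (1.04 ± 0.17). With DMSO the summed level of these genes in myotubes was 12.6% of that in control myoblasts, and the states differ in transgene, doxycycline and medium, which cannot be told apart from state.

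The response also differed between transgenic lines and control myoblasts. With piericidin it differed at 24 genes in LbNOX, 22 in mitoLbNOX and 24 in NDI1 myoblasts, with antimycin at 31 in LbNOX and 18 in mitoLbNOX myoblasts, and with oligomycin at 2 in LbNOX myoblasts. The shares of all genes called were 44.3%, 42.8%, 42.7%, 51.5%, 31.7% and 7.98% in the same order, so the oligomycin count is below the background. With antimycin and LbNOX, Spc25 (1.67 ± 0.11) and Ccnb1 (-0.98 ± 0.07) went opposite ways, in samples where the S phase list had 35 differences higher and 2 lower. In myotubes, the 5% oxygen effect with oligomycin differed from that with DMSO at 2 genes, Cdc20 and Cdk1, a share far below the 17.4% of all genes called, and at 0 or 1 when a replicate was left out.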

How the results depend on the processing

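The counts of called genes for the cell states, for the 3 inhibitors in control myoblasts, for antimycin in LbNOX and mitoLbNOX myoblasts and for 5% oxygen stayed within 1.5 times under every alternative run, and 43 of 43 were called lower in 5% oxygen in each. Smaller responses did not hold so well. By DESeq2's Wald test the count went from 2 to 1 for the oligomycin difference of LbNOX, 1 to 2 for piericidin at day 1, 3 to 5 for BAM15, 1 to 0 for piericidin added to oligomycin, 4 to 2 for oligomycin in GFP myotubes and 1 to 0 for piericidin there. DESeq2 size factors gave 1 for the LbNOX oligomycin difference and 0 for NDI1 with DMSO. With no count filter, which tests more genes, it was 1 for the LbNOX oligomycin difference, LbNOX with DMSO, mitoLbNOX with DMSO, piericidin in NDI1, chloramphenicol in LbNOX, the chloramphenicol difference, oligomycin in myotubes and piericidin in LbNOX myotubes, 0 for NDI1 with DMSO, BAM15 or piericidin added to oligomycin and piericidin in GFP myotubes, 13 for chloramphenicol in control myoblasts, 5 for piericidin at day 1, 4 for antimycin in myotubes and 2 for oligomycin in GFP myotubes. Fitting only the groups compared, with fewer samples, gave 16 for piericidin in LbNOX, 0 for the LbNOX oligomycin difference, NDI1 with DMSO, piericidin at day 1 and piericidin in GFP myotubes, 3 for chloramphenicol, 1 for oligomycin in myotubes, and 2 for piericidin added to oligomycin and for oligomycin in GFP myotubes. A term for outer wells, read from sample codes that the labels do not explain, gave 3 for chloramphenicol, 1 for oligomycin and for BAM15 in myotubes and 0 for piericidin added to oligomycin, and changed the sign of 2 uncalled antimycin values in control myoblasts, Cdca8 to 0.047 and Incenp to -0.256. Except for the fits with fewer samples or more genes, the cause was not tested.

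With the replicate block the count was 1 for mitoLbNOX with DMSO, 4 for chloramphenicol in control myoblasts, 2 for piericidin at day 1 and 1 for piericidin in LbNOX myotubes, and it stayed within 1.5 times in the other comparisons. The labels do not say that a number marks a shared culture or day, and the deviations of same-numbered samples correlated at a mean of -0.041 to 0.054 across the 6 fits; samples correlated best with their own number in 16 of 33, 19 of 37, 2 of 8, 3 of 9, 8 of 27 and 0 of 15 cases in the 6 fits.

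Leaving out a replicate gave 8 to 13 for the oligomycin difference between states, 5 to 12 for piericidin in LbNOX and 7 to 15 in mitoLbNOX, 0 to 1 for the LbNOX oligomycin difference, 0 to 1 for piericidin in NDI1, 0 for NDI1 with DMSO, 0 for piericidin and 6 to 9 for oligomycin at day 1, 1 to 5 for antimycin, 0 to 1 for oligomycin and 0 to 4 for BAM15 in myotubes, 0 for BAM15 and 0 to 1 for piericidin added to oligomycin, 0 to 3 and 0 to 2 for oligomycin in GFP and LbNOX myotubes, 0 and 0 to 1 for piericidin there, and 0 to 1 for the oligomycin difference in 5% oxygen. Some values near 0 changed sign when a replicate was left out: Incenp with antimycin in control myoblasts ranged from -0.034 to 0.409, Tpx2 with antimycin in mitoLbNOX from -0.005 to 0.046, and the called piericidin difference of Anln in NDI1 from -0.358 to 0.007. Leaving out a replicate of the chloramphenicol fit, and outer wells in the day 1 fit, could not be run, because no spread between samples remained and because all 9 samples had codes of outer wells. Where a group has 2 samples (NDI1, GFP), leaving 1 out leaves a lone sample assumed to vary like the other groups. In 5% oxygen some of the 43 genes had as few as 3 counts in a library, which limits the precision of their fold changes.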

Other observations

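The 8 genes of the hypoxia list, chosen after the data were seen, were also read where BAM15 was added to oligomycin in the standard incubator. Their summed level was 2145 to 2339 CPM there and 469 to 513 CPM with oligomycin alone, and 8 of 8 rose (median 2.01, edgeR), while 1 of the 43 G2 and mitosis genes, Nek2, was called lower (26.1% of all genes called, 14.1% lower), a call lost on leaving out any replicate.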
